A study of Mus musculus with 6 samples.

Results

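Endosomal TLR7 and TLR9 signalling is described here through 10 genes taken by name from the deposited table of spleen RNA: the receptor genes Tlr7, Tlr8 and Tlr9, the receptor chaperone gene Unc93b1, the lysosomal transporter gene Slc15a4, the adaptor and relay genes Myd88, Irak4 and Traf6, and the transcription factor genes Irf5 and Irf7. Each name occurred at 1 locus, which carried no other gene name, so the 10 genes are 10 of 44794 named loci. A total of 8 reached the mean value of 10 needed for testing, and Myd88 and Irf5 did not. RNA was sequenced from the spleens of 3 samples of Sle1b.IFNγR-/- mice and 3 samples of B6.Sle1b mice. B6.Sle1b mice are C57BL/6 mice with a congenic lupus susceptibility interval, and the Sle1b.IFNγR-/- mice have the same interval and lack the interferon-γ receptor. Both groups received imiquimod, a small-molecule agonist of TLR7, 3 times a week for 4 weeks. The study asks how interferon-γ acts on autoreactive B cell responses in lupus that TLR7 accelerates. An untreated spleen is not analysed here, so the values compare genotypes under TLR7 stimulation and say nothing of the effect of imiquimod itself. The labels give neither the disrupted receptor subunit nor the age or sex of the mice, and do not state that each sample is a separate mouse.

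TLR7 and TLR9 sense nucleic acids inside endosomes: TLR7 binds single-stranded RNA and TLR9 binds DNA with unmethylated CpG motifs. The membrane protein UNC93B1 carries both receptors out of the endoplasmic reticulum. An engaged receptor recruits MyD88, which assembles the kinase IRAK4 and the ubiquitin ligase TRAF6, and NF-κB and the interferon regulatory factors IRF5 and IRF7 are then activated. In spleen the pathway is best known in B cells, plasmacytoid dendritic cells and macrophages, and an extra copy of Tlr7 drives lupus-like disease in mice.

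Promoter windows from RefSeq (build GRCm38.p6, 250 bases before to 50 bases after the gene start) were matched for 8 of the 10 genes. Tlr7 and Unc93b1 had no entry. The gene start is that of RefSeq, which can differ from the ends of the gene given with the results. The 3 windows printed here belong to the gene whose groups did not overlap (Tlr9), the gene with the largest difference (Irf7) and the gene whose window held an interferon-response motif (Myd88). The motifs searched on both strands were the interferon-stimulated response element, read as GAAA, any 2 bases and GAAA again, and GAGGAA, the core of PU.1 sites. They are in capitals in the sequences, which run 5′ to 3′ on the gene's strand.
Tlr9, plus strand, chr9:106222348-106222647: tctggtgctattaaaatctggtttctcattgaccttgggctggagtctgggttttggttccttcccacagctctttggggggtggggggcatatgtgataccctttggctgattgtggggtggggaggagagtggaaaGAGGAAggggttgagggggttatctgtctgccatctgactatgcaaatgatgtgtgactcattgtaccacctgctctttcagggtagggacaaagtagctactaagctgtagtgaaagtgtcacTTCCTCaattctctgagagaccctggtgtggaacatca
Irf7, minus strand, chr7:141266375-141266674: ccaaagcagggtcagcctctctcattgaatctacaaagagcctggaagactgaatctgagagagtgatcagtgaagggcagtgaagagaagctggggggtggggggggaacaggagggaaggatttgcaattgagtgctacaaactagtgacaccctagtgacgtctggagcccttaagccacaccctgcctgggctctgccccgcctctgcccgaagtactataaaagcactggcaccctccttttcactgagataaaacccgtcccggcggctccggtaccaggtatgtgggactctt
Myd88, minus strand, chr9:119339969-119340268: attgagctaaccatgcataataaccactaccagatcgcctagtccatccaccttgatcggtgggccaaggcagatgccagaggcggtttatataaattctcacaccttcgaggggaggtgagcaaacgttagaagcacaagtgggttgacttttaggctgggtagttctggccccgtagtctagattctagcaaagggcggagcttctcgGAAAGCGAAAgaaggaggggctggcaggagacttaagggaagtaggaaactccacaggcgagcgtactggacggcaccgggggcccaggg
The response element occurred in 1 of the 8 windows, that of Myd88, and in 3.44% of all 32851 promoter windows. In the Myd88 window it reads GAAAGCGAAA and starts 40 bases before the gene start. The PU.1 core occurred in 3 of the 8 windows (Tlr8, Tlr9 and Traf6) and in 28.3% of all windows. The Irf7 window held neither motif as written, which says only that these letters are not in this stretch.

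Values are fragments counted at a locus after the authors' quartile scaling across libraries, called scaled counts here. The libraries corresponded to between 4394299 and 6349827 fragments. Of these, loci with a gene name held between 17.5% (B6.Sle1b replicate 2) and 27.0% (B6.Sle1b replicate 1). The mean level of 29 ribosomal protein genes, relative to their geometric mean over the 6 libraries, was between 0.765 and 0.876 in Sle1b.IFNγR-/- spleens and 2.72, 0.707 and 0.965 in B6.Sle1b replicates 1 to 3. The log2 level of 12 housekeeping genes, minus its mean over the libraries, was between -0.28 and -0.15 in Sle1b.IFNγR-/-. In B6.Sle1b replicates 1 to 3 it was 1.35, -0.91 and 0.18, so the shift was not particular to ribosomal protein genes. B6.Sle1b replicate 1 therefore stood apart, and differences of the 10 genes that rest on it are also given without it. The receptor subunit gene Ifngr1 had scaled counts of 43.7, 21.4 and 23.96 in Sle1b.IFNγR-/- and 81.5, 34.5 and 63.7 in B6.Sle1b, and Ifngr2 had 5.25, 10.1 and 4.79 in Sle1b.IFNγR-/- and 13.2, 12.3 and 7.50 in B6.Sle1b. A disrupted gene can still be transcribed, so neither checks the genotype. As Tlr7 and Tlr8 are X-linked, the sex-linked genes were read: Xist lay between 1081 and 1158 in Sle1b.IFNγR-/- and between 721 and 3130 in B6.Sle1b, and Ddx3y, Uty and Eif2s3y were listed at 0 in all 6 libraries. Kdm5d lay between 3.59 and 6.74 in Sle1b.IFNγR-/-, and was listed at 0, 12.3 and 0 in B6.Sle1b replicates 1 to 3.

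**Figure D1:**
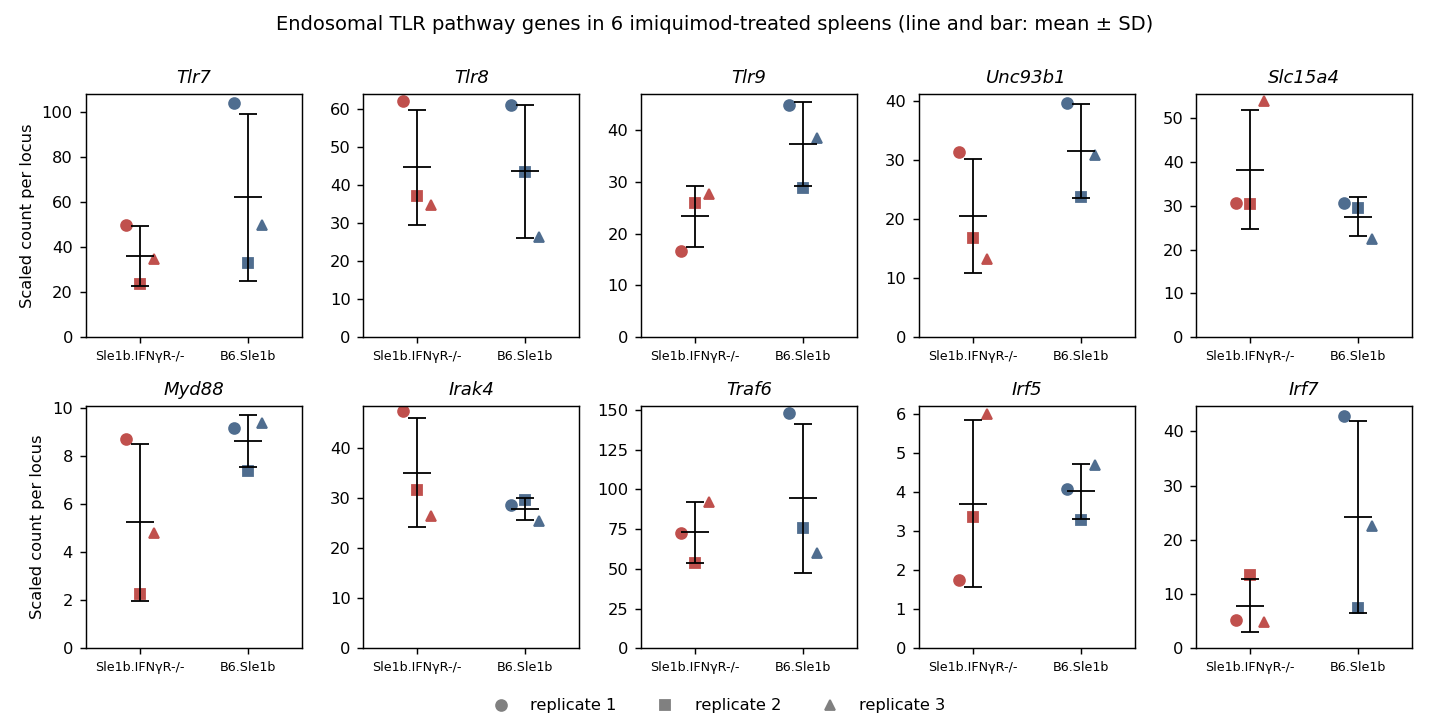
Scaled count per locus (vertical axes, linear, from 0) of the 10 genes in 3 Sle1b.IFNγR-/- and 3 B6.Sle1b libraries, 1 panel a gene; symbols mark the replicate, and the line and bar are the mean ± SD of 3 libraries. The groups are separate for Tlr9, from 16.6 to 27.6 in Sle1b.IFNγR-/- and from 28.8 to 44.8 in B6.Sle1b, and overlap for the other 9 genes.

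Whether the receptor genes differ in spleens without the interferon-γ receptor was examined first. None of the 3 passed the test, and Tlr9 was the only one whose groups did not overlap. For Tlr9 (GRCm38 chromosome 9, from 106222598 to 106226883) the scaled counts were 16.6, 25.8 and 27.6 in Sle1b.IFNγR-/- and 44.8, 28.8 and 38.4 in B6.Sle1b. The gap between the groups was narrow, from 27.6 to 28.8 scaled counts. The highest Sle1b.IFNγR-/- value stood for 23 fragments and the lowest B6.Sle1b value for 35, in libraries of unlike depth. As scaled counts their exact Poisson 95% intervals were 17.5 to 41.3 and 20.0 to 40.0, which cover counting error only. Tlr9 averaged 23.3 ± 5.88 in Sle1b.IFNγR-/- and 37.3 ± 8.09 in B6.Sle1b (SD, n = 3 each). The log2 difference was -0.66 (SE 0.37, 95% interval -1.46 to 0.13), with an adjusted p of 0.9998 by limma with Benjamini-Hochberg adjustment over all loci tested. Without B6.Sle1b replicate 1 it was -0.53.

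Tlr7, the receptor that imiquimod engages (chromosome X, 167304929 to 167330558), had 49.8, 23.6 and 34.7 in Sle1b.IFNγR-/- and 103.9, 32.9 and 49.7 in B6.Sle1b. B6.Sle1b replicate 1 stood far above the other 5 libraries, and the remaining B6.Sle1b values lay inside the Sle1b.IFNγR-/- range. Tlr7 averaged 36.1 ± 13.2 in Sle1b.IFNγR-/- and 62.2 ± 37.1 in B6.Sle1b (SD, n = 3 each). On the log2 scale Tlr7 differed by -0.67 (SE 0.44, 95% interval -1.61 to 0.27; limma adjusted p 0.9998). Without B6.Sle1b replicate 1 the difference was -0.22, and with any other library left out it lay between -1.04 and -0.41.

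Tlr8, the neighbour of Tlr7 with 40599 bases between them (chromosome X, 167242696 to 167264329), encodes a receptor that senses RNA in human cells and is far less responsive to such ligands in mice. It had 62.1, 37.1 and 34.7 in Sle1b.IFNγR-/- and 61.1, 43.6 and 26.2 in B6.Sle1b. The ranges nearly coincided, and the log2 difference was 0.062 (SE 0.39, 95% interval -0.77 to 0.90; limma adjusted p 0.9998). Its sign depended on single libraries, at -0.20 without Sle1b.IFNγR-/- replicate 1 and -0.25 without B6.Sle1b replicate 3.

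The ratio of 2 genes within a library, taken after adding 1 to each value, depends little on the scale between libraries where both values are far above 1. The log2 ratio of Tlr7 to Tlr9 was 1.53, -0.13 and 0.32 in Sle1b.IFNγR-/- and 1.19, 0.19 and 0.36 in B6.Sle1b. In both groups replicate 1 was the highest, and the group means differed by -0.0055 (exact permutation p = 1, two-sided). The log2 ratio of Tlr7 to Tlr8 was -0.31, -0.63 and 0 in Sle1b.IFNγR-/- and 0.76, -0.40 and 0.90 in B6.Sle1b, a difference of -0.73 (exact permutation p = 0.3, two-sided, 0.45 after Benjamini-Hochberg adjustment over 3 ratios). In B6.Sle1b, 2 of 3 libraries lay above every Sle1b.IFNγR-/- library and replicate 2 lay inside their range. With 3 against 3 libraries the smallest p is 0.1, so none of the ratios could pass.

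Unc93b1 and Slc15a4, which act on the receptors and on the endolysosome they signal from, had opposite differences, neither past the test. Unc93b1 (chromosome 19, 3935186 to 3949340) had 31.5, 16.9 and 13.2 in Sle1b.IFNγR-/- and 39.7, 23.8 and 30.9 in B6.Sle1b. Sle1b.IFNγR-/- replicate 1 lay above 2 of the 3 B6.Sle1b libraries, while the other 2 lay below all 3. Unc93b1 averaged 20.5 ± 9.68 in Sle1b.IFNγR-/- and 31.5 ± 7.97 in B6.Sle1b (SD, n = 3 each), a log2 difference of -0.66 (SE 0.42, 95% interval -1.57 to 0.25; limma adjusted p 0.9998), or -0.48 without B6.Sle1b replicate 1. Slc15a4, a histidine and peptide transporter of the endolysosome that TLR7 and TLR9 responses need (chromosome 5, 127595664 to 127632897), had 30.6, 30.3 and 53.9 in Sle1b.IFNγR-/- and 30.6, 29.6 and 22.5 in B6.Sle1b. Only Sle1b.IFNγR-/- replicate 3 stood above the rest, and the other 5 libraries lay between 22.5 and 30.6. For Slc15a4 the log2 difference was 0.42 (SE 0.37, 95% interval -0.37 to 1.21; limma adjusted p 0.9998), and 0.15 without Sle1b.IFNγR-/- replicate 3. Slc15a4 overlaps Glt1d1 on the opposite strand, and without a stated strand setting their reads cannot be told apart.

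Of the adaptor and relay genes, Myd88, the adaptor shared by TLR7, TLR8 and TLR9 (chromosome 9, 119335934 to 119341411), was sparsely covered. It had 8.74, 2.25 and 4.79 in Sle1b.IFNγR-/- and 9.17, 7.40 and 9.37 in B6.Sle1b, which stood for 10, 2 and 4 fragments and for 9, 9 and 10 fragments. Sle1b.IFNγR-/- replicates 2 and 3 lay below every B6.Sle1b library and replicate 1 lay inside the B6.Sle1b range. The mean of all libraries, 6.95, was under the minimum. Fitted without a minimum, its log2 difference of -0.76 had an SE of 0.79 (unadjusted p 0.349, limma adjusted p 0.964). Myd88 also overlaps Slc22a14 on its own strand and, on the opposite strand, Acaa1a, a locus with a mean of 76.6.

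Irak4, the first kinase recruited by MyD88 (chromosome 15, 94543643 to 94581815), had 47.2, 31.5 and 26.4 in Sle1b.IFNγR-/- and 28.5, 29.6 and 25.3 in B6.Sle1b. The B6.Sle1b libraries kept close together (27.8 ± 2.23, SD, n = 3), B6.Sle1b replicate 1 included, and the Sle1b.IFNγR-/- libraries ranged more widely (35.01 ± 10.9, SD, n = 3). For Irak4 the log2 difference was 0.28 (SE 0.36, 95% interval -0.49 to 1.05; limma adjusted p 0.9998), and 0.052 without Sle1b.IFNγR-/- replicate 1. Irak4 overlaps Twf1 on the opposite strand. Traf6, the ubiquitin ligase that links the receptor complex to NF-κB (chromosome 2, 101678429 to 101701669), had 72.6, 53.9 and 92.2 in Sle1b.IFNγR-/- and 147.8, 75.6 and 60.0 in B6.Sle1b. B6.Sle1b replicate 1 was again the highest of the 6 and the other 2 B6.Sle1b libraries lay inside the Sle1b.IFNγR-/- range. Traf6 differed by -0.29 on the log2 scale (SE 0.37, 95% interval -1.08 to 0.49; limma adjusted p 0.9998), and 0.079 without B6.Sle1b replicate 1.

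Irf7 and Irf5 are the transcription factors at the end of the pathway. Irf7 drives type I interferon genes and is itself induced by interferon, and Irf5 drives inflammatory cytokine genes. Irf7 (chromosome 7, 141262706 to 141266481) had 5.25, 13.5 and 4.79 in Sle1b.IFNγR-/- and 42.8, 7.40 and 22.5 in B6.Sle1b. The 2 highest values were both B6.Sle1b and the 2 lowest both Sle1b.IFNγR-/-, while Sle1b.IFNγR-/- replicate 2 lay above B6.Sle1b replicate 2. In fragments these were 6, 12 and 4 in Sle1b.IFNγR-/- and 42, 9 and 24 in B6.Sle1b. Irf7 averaged 7.84 ± 4.89 in Sle1b.IFNγR-/- and 24.2 ± 17.8 in B6.Sle1b (SD, n = 3 each), a log2 difference of -1.35 (SE 0.69, 95% interval -2.85 to 0.15; unadjusted p 0.074, limma adjusted p 0.9998), and -0.80 without B6.Sle1b replicate 1. It was the largest difference among the 10 genes and did not pass. Irf7 overlaps Phrf1, on the opposite strand and with a mean of 23.4 at its own locus.

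Irf5 (chromosome 6, 29526625 to 29541871) had 1.75, 3.37 and 5.99 in Sle1b.IFNγR-/- and 4.08, 3.29 and 4.69 in B6.Sle1b, or between 2 and 5 fragments in each library. The Sle1b.IFNγR-/- range enclosed that of B6.Sle1b. Fitted without a minimum, the log2 difference of -0.19 had an SE of 0.87 (unadjusted p 0.832, limma adjusted p 0.990), and Irf5 overlaps Tnpo3 on the opposite strand. The log2 ratio of Irf7 to Irf5 was 1.18, 1.73 and -0.27 in Sle1b.IFNγR-/- and 3.11, 0.97 and 2.05 in B6.Sle1b, a difference of -1.16 with overlap (exact permutation p = 0.3, two-sided, 0.45 after adjustment over the 3 ratios). As the Irf5 values are not far above the added 1, this ratio depends on it. The difference was -1.18 after adding 0.5 and -0.79 after adding 10.

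**Figure D2:**
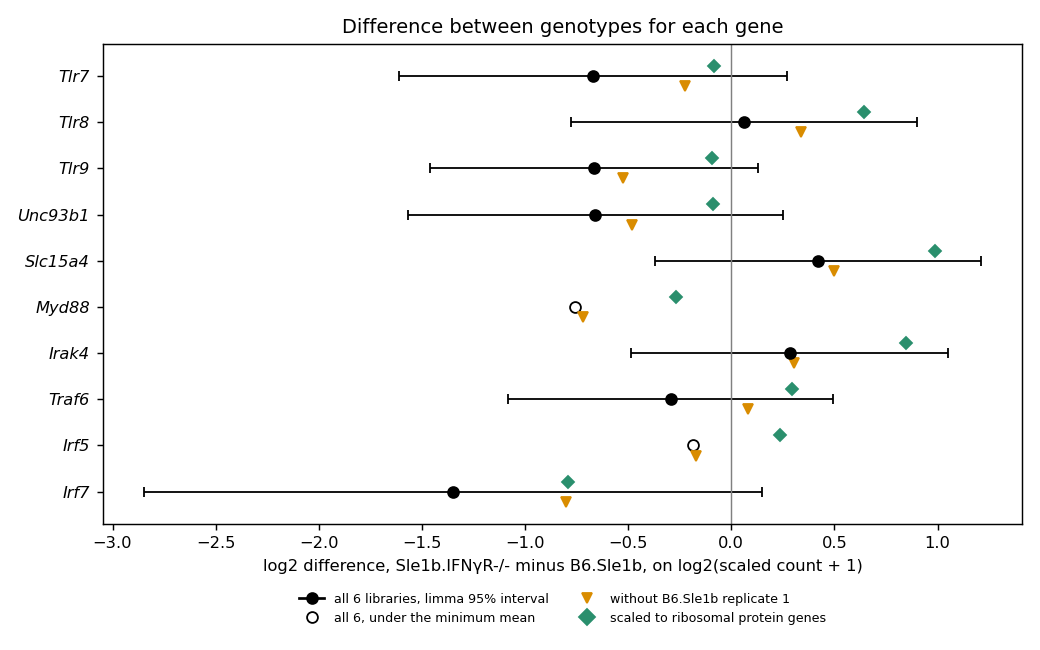
Log2 difference, Sle1b.IFNγR-/- minus B6.Sle1b, of each gene on the log2(scaled count + 1) scale (horizontal axis); filled points with bars are limma estimates with 95% intervals, open points are the 2 genes under the minimum, triangles leave out B6.Sle1b replicate 1, and diamonds scale each library to its ribosomal protein level. Every bar crosses 0. The ribosomal scaling moves all loci together, to a median of 0.49 against -0.083 without it, and on it Tlr7, Tlr9 and Unc93b1 lie at -0.086, -0.094 and -0.090, below that median.

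Over the 8 tested genes, 0 passed an adjusted p of 0.05 by limma and 0 had an unadjusted p under 0.05. Over all 19227 loci tested, 0% passed and 3.1% had an unadjusted p under 0.05. The log2 difference was negative for 5 of the 8 tested genes and for 7 of all 10, against 58.1% of all loci tested. Without B6.Sle1b replicate 1 it was negative for 4 of the 8 and for 48.3% of all loci, and with libraries scaled to their ribosomal protein genes for 4 of the 8 and for 13.8% of all loci. The median of the 8 was -0.48, against -0.083 over all loci tested. It was -0.072 without B6.Sle1b replicate 1, against 0.019 over all loci, and with ribosomal scaling 0.10, against 0.49 over all loci. Groups without overlap and lower in Sle1b.IFNγR-/- were found for 1 of the 10 genes (Tlr9) and for 5.19% of the loci tested, and groups without overlap and higher for 0 of the 10 genes and 3.51% of the loci.

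Per kb of annotated exon, which adjusts for gene length only, Tlr7, Tlr8 and Traf6 had the 3 highest mean levels in both groups. Myd88 and Irf5 had the 2 lowest. Before that adjustment, the housekeeping genes Gapdh and Actb averaged 27.6 and 215 scaled counts in Sle1b.IFNγR-/-, against 36.1 for Tlr7. In B6.Sle1b they averaged 64.3 and 496, against 62.2 for Tlr7. With Gapdh that low, and named loci holding at most 27.0% of fragments, the order may not rank expression. In Sle1b.IFNγR-/- spleens the order was Tlr8 (12.4 ± 4.23 scaled counts per kb), Traf6 (9.25 ± 2.43), Tlr7 (8.83 ± 3.23), Slc15a4 (7.21 ± 2.55), Irak4 (6.97 ± 2.17), Unc93b1 (6.76 ± 3.19), Tlr9 (6.71 ± 1.69), Irf7 (2.08 ± 1.30), Myd88 (2.04 ± 1.27) and Irf5 (1.27 ± 0.74). Of these neighbours only Tlr9 and Irf7 had ranges that did not overlap. In B6.Sle1b spleens it was Tlr7 (15.2 ± 9.10), Tlr8 (12.2 ± 4.86), Traf6 (11.98 ± 5.94), Tlr9 (10.7 ± 2.32), Unc93b1 (10.4 ± 2.63), Irf7 (6.42 ± 4.70), Irak4 (5.54 ± 0.44), Slc15a4 (5.19 ± 0.83), Myd88 (3.36 ± 0.42) and Irf5 (1.38 ± 0.24), all means ± SD of 3 libraries. Here only Slc15a4 and Myd88, and Myd88 and Irf5, had ranges apart. The positions of the other neighbours in either order do not differ beyond the spread between libraries.

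**Figure D3:**
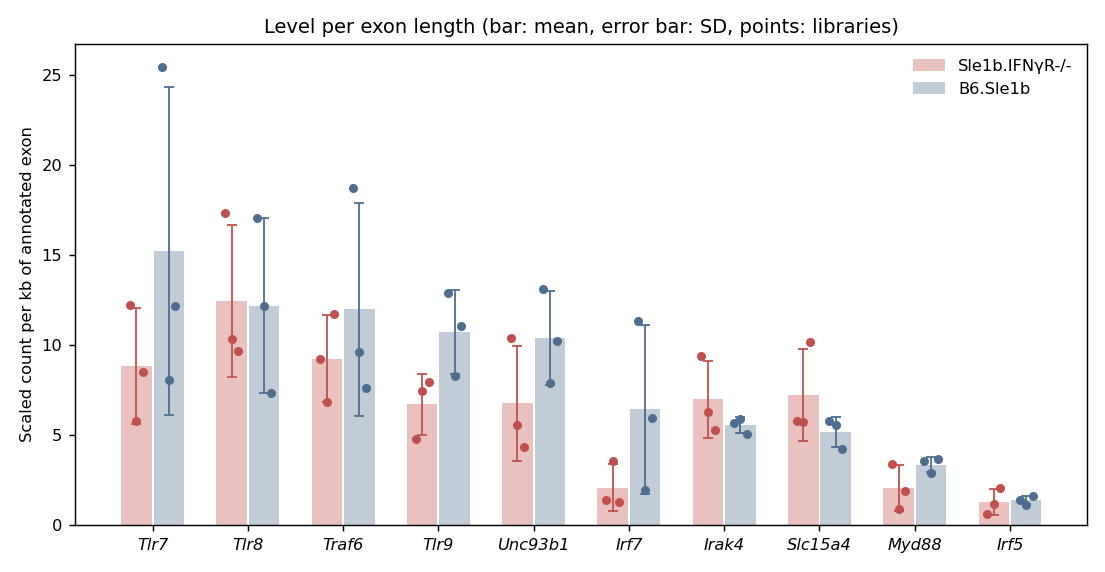
Scaled count per kb of annotated exon (vertical axis, linear, from 0) for the 10 genes, ordered by the B6.Sle1b mean; bars are group means of 3 libraries, error bars SD and points single libraries. Tlr7 spreads widest, from 8.06 to 25.5 in B6.Sle1b, and Irf5 stays at or under 2.06 in all 6 libraries.

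The ribosomal protein level and the housekeeping level were both highest in B6.Sle1b replicate 1 and lowest in B6.Sle1b replicate 2. As log2 level minus the mean of the 6 libraries, Irf7 lay at -0.62 and Tlr7 at -0.40 in B6.Sle1b replicate 2. Tlr9 lay at -0.010 and Unc93b1 at -0.030 there. With the ribosomal protein level as a covariate the log2 difference was -0.23 for Tlr7, -0.49 for Tlr9 and -0.68 for Irf7. In that fit 4 of the 8 tested genes were negative, with a median of -0.095 against 0.023 over all loci. The part of either level in the differences was otherwise not tested. B6.Sle1b replicate 1 held the highest of the 6 values for 5 of the 10 genes: Tlr7, Tlr9, Unc93b1, Traf6 and Irf7. When each value was divided by the ribosomal protein level of its library, Tlr7 lay at 65.2, 26.9 and 43.2 in Sle1b.IFNγR-/- and 38.2, 46.5 and 51.5 in B6.Sle1b. The B6.Sle1b libraries then lay inside the Sle1b.IFNγR-/- range. Tlr9 lay at 21.7, 29.5 and 34.3 in Sle1b.IFNγR-/- and 16.5, 40.7 and 39.8 in B6.Sle1b, and its groups overlapped. Irf7 lay at 6.86, 15.4 and 5.96 in Sle1b.IFNγR-/- and 15.7, 10.5 and 23.3 in B6.Sle1b, with 2 of 3 B6.Sle1b libraries above every Sle1b.IFNγR-/- library. Slc15a4 lay at 40.0, 34.6 and 67.1 in Sle1b.IFNγR-/- and 11.2, 41.9 and 23.3 in B6.Sle1b. This scaling gave a median over all loci tested of 0.49, against -0.083 without it. On it the differences of Irf7 (-0.79) and Myd88 (-0.27) lay farthest under that median, and those of Slc15a4 (0.99), Irak4 (0.85) and Tlr8 (0.64) lay above it. Traf6 and Irf5 had the opposite sign on this scale, at 0.29 and 0.23, both under the median of all loci.

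In whole spleen, fewer cells of a type and less RNA per cell cannot be told apart, so markers of the cell types that use this pathway were read beside the genes. Counts of negative markers are to be read against 58.1% of all loci tested, or 48.3% without B6.Sle1b replicate 1. All 8 B cell markers were detected in every library, and 7 of the 8 had negative log2 differences, with a median of -0.23. Their summed scaled counts lay between 939 and 1023 in Sle1b.IFNγR-/- and between 902 and 1859 in B6.Sle1b. The 8 plasmacytoid dendritic cell markers summed to between 205 and 258 in Sle1b.IFNγR-/- and between 173 and 380 in B6.Sle1b, with 4 of 5 tested negative and Bst2 and Cox6a2 at 0 in some libraries. The 9 monocyte and macrophage markers summed to between 437 and 477 in Sle1b.IFNγR-/- and between 331 and 1528 in B6.Sle1b, with 9 of 9 tested negative. No marker of these or the following lists passed the test on genotype alone. With the ribosomal covariate 1 of the 6 erythroid markers passed, and all 6 had positive differences, with a median of 1.23. The upper ends of all 3 B6.Sle1b ranges were B6.Sle1b replicate 1. Without that library 2 of the 8 B cell markers (median 0.12), 3 of the 5 plasmacytoid dendritic cell markers and 5 of the 9 monocyte and macrophage markers had negative differences. With scaling to ribosomal protein genes, where 13.8% of all loci were negative, these counts were 1 of 8, 2 of 5 and 4 of 9.

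The remaining lists also peaked in B6.Sle1b replicate 1, and their counts are to be read against the same shares of all loci. Red pulp macrophage markers (4 of 7 tested negative) summed to between 416 and 507 in Sle1b.IFNγR-/- and between 308 and 995 in B6.Sle1b. Conventional dendritic cell markers (4 of 5 tested negative, Batf3 at 0 in some libraries) lay between 207 and 219 in Sle1b.IFNγR-/- and between 193 and 337 in B6.Sle1b. Plasma cell markers (3 of 3 tested negative, Mzb1 at 0 in some libraries and Tnfrsf17 at 0 in all 6) lay between 109 and 130 in Sle1b.IFNγR-/- and between 136 and 729 in B6.Sle1b. Theirs was the only list whose sums did not overlap, by a narrow gap, and 3 of 3 were also negative without B6.Sle1b replicate 1 and with ribosomal scaling. Of the tested plasma cell markers Prdm1 and Jchain had groups apart. For Jchain the highest Sle1b.IFNγR-/- value was 52.8 and the lowest B6.Sle1b value 53.4. Such groups, lower in Sle1b.IFNγR-/-, were not particular to this list. They were found for 2 tested conventional dendritic cell markers, and for 1 each of the plasmacytoid dendritic cell and T cell markers. The monocyte and macrophage list and the red pulp macrophage list also had 1 each, and of all loci tested 5.19% had them. Xbp1 overlapped, with 18.1 in B6.Sle1b replicate 2 under the 25.8 to 27.1 of Sle1b.IFNγR-/-. Without B6.Sle1b replicate 1 the negative counts were 2 of 7 for red pulp macrophage, 2 of 5 for conventional dendritic cell, 3 of 5 for T cell, 1 of 3 for neutrophil and 0 of 5 for erythroid markers, the last with a median of 1.16. T cell markers (4 of 5 tested negative) lay between 253 and 291 in Sle1b.IFNγR-/- and between 257 and 448 in B6.Sle1b. Neutrophil markers (3 of 3 tested negative, Camp, Ltf and Elane at 0 in some libraries) lay between 66.3 and 88.6 in Sle1b.IFNγR-/- and between 69.9 and 247 in B6.Sle1b, and erythroid markers (1 of 6 tested negative) between 472 and 693 in Sle1b.IFNγR-/- and between 161 and 2137 in B6.Sle1b. The part of cell makeup in the values of the 10 genes was not tested.

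**Figure D4:**
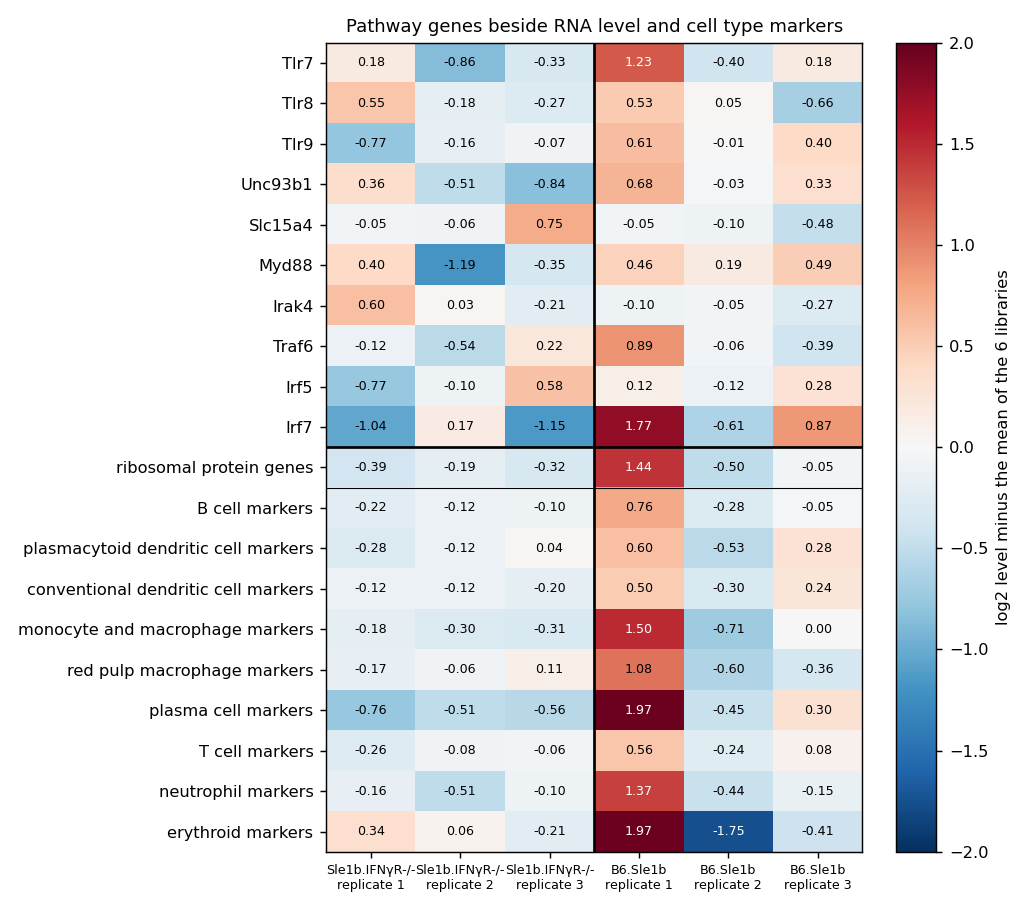
Log2 level minus the mean of the 6 libraries (colour and printed value) for the 10 genes on log2(scaled count + 1), for the ribosomal protein genes, and for the summed markers of 9 cell types; columns are the 3 Sle1b.IFNγR-/- and then the 3 B6.Sle1b libraries. B6.Sle1b replicate 1 is high for Irf7 (1.77), Tlr7 (1.23), the ribosomal protein genes (1.44) and every marker list, and near 0 for Irak4 and Slc15a4 (-0.10 and -0.053).

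The wider pathway was read from 79 listed genes in 8 groups, of which 77 matched a locus and 59 were tested. By limma 0 of the 59 passed and 2 had an unadjusted p under 0.05, against 0% and 3.1% of all loci tested. Log2 differences were negative for 44 and positive for 15, with a median of -0.26. Without B6.Sle1b replicate 1 the split was 29 negative and 29 positive, with a median of -0.0014, and with scaling to ribosomal protein genes it was 16 negative and 45 positive of 61, with a median of 0.33. The medians of all loci were -0.083 with all libraries, 0.019 without B6.Sle1b replicate 1 and 0.49 with ribosomal scaling, where 13.8% of all loci were negative. The list thus lay under all loci by about as much with ribosomal scaling as without it, and close to all loci without B6.Sle1b replicate 1. Of all loci, 58.1% were negative with all libraries and 48.3% without B6.Sle1b replicate 1. Counts in the following groups are to be read against these shares, and those with ribosomal scaling against that 13.8%. Groups did not overlap for 4 genes of the 59, lower in Sle1b.IFNγR-/- for 3 and higher for 1. Over all loci tested the shares without overlap were 5.19% lower and 3.51% higher, so these counts do not set the list apart.

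Among the other Toll-like receptors 7 of 9 tested had negative differences, 2 of 9 without B6.Sle1b replicate 1 and 1 of 9 with ribosomal scaling. Tlr5, the flagellin receptor, had 4.37, 13.5 and 10.8 in Sle1b.IFNγR-/- and 19.4, 13.2 and 21.6 in B6.Sle1b, a log2 difference of -0.94 (-0.88 without B6.Sle1b replicate 1). Tlr6, which pairs with TLR2 on bacterial lipopeptides, had 16.6, 13.5 and 14.4 in Sle1b.IFNγR-/- and 11.2, 8.22 and 8.44 in B6.Sle1b. Tlr6 was thus higher in every Sle1b.IFNγR-/- library, with a log2 difference of 0.63 (SE 0.54) that did not pass. Genes of receptor folding, trafficking and cleavage had negative differences in 8 of 8 tested, with a median of -0.42, in 5 of 8 without B6.Sle1b replicate 1 and in 3 of 8 with ribosomal scaling. Cnpy3, a chaperone that most Toll-like receptors need to fold, had the smallest p of that list, with 24.5, 11.2 and 14.4 in Sle1b.IFNγR-/- and 39.7, 50.1 and 18.7 in B6.Sle1b and a log2 difference of -1.03 (SE 0.46, unadjusted p 0.043, limma adjusted p 0.9998). Its groups overlapped.

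Genes that handle nucleic acids had negative differences in 5 of 7 tested, in 3 of 6 without B6.Sle1b replicate 1 and in 4 of 7 with ribosomal scaling. Rnaset2a, a lysosomal RNase, had 18.4, 12.4 and 11.98 in Sle1b.IFNγR-/- and 51.97, 17.3 and 26.2 in B6.Sle1b, and Dnase2a, a lysosomal DNase, 32.4, 33.7 and 33.5 in Sle1b.IFNγR-/- and 20.4, 18.1 and 38.4 in B6.Sle1b. Their log2 differences were -0.99 and 0.44, or -0.58 and 0.32 without B6.Sle1b replicate 1, and both overlapped. Rnaset2a has a near-identical copy, Rnaset2b, so its values are uncertain. Among the other adaptors and kinases 10 of 14 tested had negative differences, 9 of 14 without B6.Sle1b replicate 1 and 2 of 15 with ribosomal scaling. Map3k7, the TAK1 kinase activated through TRAF6, had 9.62, 35.96 and 23.96 in Sle1b.IFNγR-/- and 83.6, 35.3 and 38.4 in B6.Sle1b, a log2 difference of -1.21 (SE 0.49, unadjusted p 0.028, limma adjusted p 0.9998), and -0.82 without B6.Sle1b replicate 1. Ube2n, the ubiquitin-conjugating enzyme that works with TRAF6, had 32.4, 19.1 and 27.6 in Sle1b.IFNγR-/- and 27.5, 6.58 and 23.4 in B6.Sle1b, a log2 difference of 0.62, or 0.98 without B6.Sle1b replicate 1.

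Among the IKK, NF-κB and MAP kinase genes 3 of 9 tested had negative differences, with a median of 0.034, 2 of 9 without B6.Sle1b replicate 1 and 1 of 9 with ribosomal scaling. Mapk14, which encodes p38α, had 37.6, 33.7 and 25.2 in Sle1b.IFNγR-/- and 152.8, 22.2 and 47.8 in B6.Sle1b, a log2 difference of -0.77. That of Mapk14 was -0.040 without B6.Sle1b replicate 1. For Ikbkb, which encodes IKKβ, the difference was 0.23, and 0.40 without that library. The 3 tested interferon regulatory factor genes outside the 10 had negative differences, also without B6.Sle1b replicate 1 and with ribosomal scaling. Irf3, the factor of TLR3 and TLR4 signalling through TRIF, had 33.2, 28.1 and 32.3 in Sle1b.IFNγR-/- and 59.1, 46.9 and 40.3 in B6.Sle1b, without overlap and with a log2 difference of -0.61 (SE 0.32; limma adjusted p 0.9998). The 5 tested negative regulators had negative differences, against 2 of 5 without B6.Sle1b replicate 1 and 1 of 6 with ribosomal scaling. Tnip1, a partner of the deubiquitinase A20, had 20.99, 26.97 and 14.4 in Sle1b.IFNγR-/- and 31.6, 28.8 and 29.1 in B6.Sle1b, without overlap and with a log2 difference of -0.54. Of 14 cytokine and costimulatory genes, 4 were abundant enough to test, and 3 of these had negative differences, 3 without B6.Sle1b replicate 1 and 1 with ribosomal scaling. The log2 difference was -0.82 for the chemokine gene Ccl5. Cxcl10, a chemokine gene that interferons induce, had 27.98, 22.5 and 15.6 in Sle1b.IFNγR-/- and 77.4, 5.75 and 9.37 in B6.Sle1b, a log2 difference of 0.35. It was 1.42 without B6.Sle1b replicate 1 (SE 0.59, unadjusted p 0.024, limma adjusted p 0.993), so its size rested on that library. Among the untested, Ifnb1 and Tnf, direct outputs of the pathway, lay between 0 and 4.79 in Sle1b.IFNγR-/- and between 1.87 and 7.50 in B6.Sle1b, too low for a comparison.

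The loci whose pattern over the 6 libraries was most like that of Tlr7 were a gene known only by a clone name, the importin family gene Ranbp6 and the formin gene Diap2, with Pearson correlations of log2(scaled count + 1) of 0.9937, 0.992 and 0.9896. For Tlr9 they were Serping1, which encodes the C1 inhibitor, the myeloid lectin gene Clec12a and the histone methyltransferase gene Kmt2b, at 0.992, 0.988 and 0.988. With 6 points and 19227 loci high values arise readily: 133 loci exceeded 0.95 with Tlr7 and 60 with Tlr9. The points share the ribosomal protein level of the libraries, and the correlations are given as a description.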

How the data were processed

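Spleen RNA from 3 Sle1b.IFNγR-/- and 3 B6.Sle1b samples was made into cDNA libraries with the Ovation RNA-seq System V2 after TRIzol extraction, per the labels' protocols. Reads were processed on build GRCm38 with CASAVA, TopHat2 2.0.9 and Cufflinks 2.2.1, per the submitters' processing notes. Annotation release, strand setting and the handling of multi-mapped reads were not given in the sources used here. Per the file headers, the deposited signal is a fragment count for each locus to which the authors applied quartile scaling. The table's 1530481 lines, which repeat a locus for each transcript, were collapsed to 426574 loci. Each library had a step, from 0.822 to 1.198, that was taken as 1 fragment: 99.8% of its positive values came to a whole number of steps within 0.01. As the rest were not, the planned edgeR test on counts was not run and the fit for scaled values was used. Another 24 columns of per-sample values were not used.

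Named loci whose mean reached 10 (19227 in all) entered a fit of log2(value + 1) on genotype alone, made in limma 3.58.1 (R 4.3.3) with its trend option. The threshold was a Benjamini-Hochberg adjusted p of 0.05. Changes of low genes come out too small on this scale. Ratios were tested by exact two-sided permutation in python 3.11.15 (numpy 2.4.6, pandas 2.3.3, scipy 1.17.1), and figures drawn with matplotlib 3.10.9. The procedure was tested on simulated data with the same dispersion for all loci and no library standing apart. That test therefore does not cover libraries like B6.Sle1b replicate 1. Coordinates and exon lengths are from GENCODE mouse release 21 on GRCm38. Of 201 list entries 198 matched a locus, and Rab7b, Irf8 and Rpl13 were not analysed here.

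The genes, lists and alternatives were chosen with earlier results of these data known. Named beside the 10 genes are the gene of smallest p in each direction of each pathway list, the receptor and sex-linked checks, and the 3 loci most like Tlr7 and Tlr9; Ifnb1 and Tnf were added with their values in view. Alternatives were other scalings, low-value filters, pseudocounts, robust limma, a ribosomal covariate, a replicate block and leaving out each library. As the labels do not state separate mice, the p-values may reflect technical spread alone.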

Additional observations from a re-analysis of the deposited data

How the results depend on the processing

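None of the genes tested among the 10 passed under any of the 17 alternatives run: Myd88 and Irf5 were tested only without a low-value filter, and Traf6 alone at a minimum mean of 50. The count of all genes that passed was 0 as reported by limma (596 with an unadjusted p under 0.05), and 1 with scaling to the total of named loci, 1 with scaling to ribosomal protein genes, 9 with the ribosomal covariate and between 0 and 5 when single libraries were left out (5 without B6.Sle1b replicate 1, 5 without B6.Sle1b replicate 2). The number of the 10 genes lower in Sle1b.IFNγR-/- was 7, and between 5 and 8 elsewhere, the lowest with scaling to ribosomal protein genes; it could not be counted at a minimum mean of 50. Irf7 lay between -1.99 and -0.68, Tlr7 between -1.04 and -0.086, Tlr9 between -0.84 and -0.094, Unc93b1 between -1.001 and -0.090, Slc15a4 between 0.15 and 0.99 and Irak4 between 0.052 and 0.85. The smallest unadjusted p, 0.007 for Irf7 without B6.Sle1b replicate 2, had an adjusted p of 0.355. Signs changed for Traf6 (0.29 with scaling to ribosomal protein genes, 0.036 with the ribosomal covariate, 0.079 without B6.Sle1b replicate 1), Irf5 (0.23 with scaling to ribosomal protein genes, 0.15 without Sle1b.IFNγR-/- replicate 1) and Tlr8 (-0.20 without Sle1b.IFNγR-/- replicate 1, -0.25 without B6.Sle1b replicate 3); the cause was not tested. Over all left-out libraries Traf6 lay between -0.56 and 0.079, Irf5 between -0.52 and 0.15 and Tlr8 between -0.25 and 0.34. The Tlr7 to Tlr9 ratio, -0.0055, lay between -0.48 and 0.35 when single libraries were left out, with 0.35 and 0.12 without Sle1b.IFNγR-/- replicates 2 and 3 and 0.30 without B6.Sle1b replicate 1. The replicate block gave 0 genes and 7 of the 10 lower, with ratio differences of -0.0055, -0.73 and -1.16. Correlations of same-numbered libraries were 0.012, -0.027 and -0.011 and gave no sign of pairing by number. With so few libraries, and no differently numbered pairs beside them, they cannot exclude it. The edgeR test was not run. Depth limits Irf5 and Myd88, with 2 to 10 fragments a library, most.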
